A study of Mus musculus with 14 samples.

Results

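A set of 32 genes that mark haematopoietic stem cells and multipotent progenitors was followed by RNA sequencing in mouse HPC-LSK lines, cultured progenitor cells that carried or lacked the kinase Cdk6 and were either transformed by BCR-ABL p210 or not. The genes were taken by symbol from the 50686 genes counted and sorted by role. They comprise 13 transcription factor genes (Hlf, Mecom, Etv6, Erg, Prdm16, Sox4, Bcl11a, Ikzf2, Satb1, Zfp521, Nfix, Runx1 and Nkx2-3) and 3 chromatin or RNA regulator genes (Mllt3, Hmga2 and Msi2). There are 13 surface marker genes (Slamf1, Procr, Tek, Tie1, Ly6a, Cd34, Cd48, Pdzk1ip1, Esam, Eng, Adgrg1, Cd27 and Robo4), 1 secreted ligand gene (Angpt1) and 2 intracellular adaptor or exchange factor genes (Ctnnal1 and Fgd5). Of the 32 genes, 29 had enough reads to be tested. Nkx2-3, Robo4 and Fgd5 did not.

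Haematopoietic stem cells self-renew and give rise to multipotent progenitors, which lose self-renewal before they commit to a lineage. Transcription factors such as Hlf, Mecom, Erg, Runx1 and Prdm16 maintain or specify the stem cell state, and surface proteins such as Slamf1 (CD150), Procr (EPCR), Ly6a (Sca-1), Cd34 and Cd48 are used to sort stem cells from progenitors. The receptor tyrosine kinase encoded by Tek (Tie2) binds angiopoietin-1, the product of Angpt1, and Tie1 is its partner receptor. BCR-ABL p210 is the fusion kinase of chronic myeloid leukaemia and frees progenitors from the need for cytokines. Cdk6 is a cyclin D-dependent kinase that also acts on transcription.

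The 14 libraries form 4 groups: 4 Cdk6 KO lines transformed by BCR-ABL p210 (KO p210), 3 Cdk6 WT lines transformed by BCR-ABL p210 (WT p210), 3 untransformed Cdk6 KO lines and 4 untransformed Cdk6 WT lines, all of the C57BL/6N background. Untransformed cells grew on agarose plates in IMDM with 12.5 ng/ml IL-6 and 2% SCF. The growth protocol has p210 cells without IL-6 or SCF, although the sample descriptions of p210 libraries carry the letters SCF, whose meaning there was not settled. Transformation and medium therefore change together and cannot be told apart. The labels do not give which part of Cdk6 the KO lacks, nor whether replicates were derived separately, so each p-value below measures the spread between these libraries. Sample descriptions carry 1 of 2 codes and a letter, A or B. Code and letter were read as naming a line within a genotype, which pairs 3 KO and 3 WT lines across both states.

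Total counts ranged from 20270348 to 50303271 per library. Cdk6 stood at 326, 578, 245 and 163 CPM (counts divided by the library's TMM-adjusted size) in KO p210 libraries 1 to 4, against 576, 606 and 597 CPM in WT p210 libraries. In untransformed libraries it stood at 236 to 271 CPM in KO and 970 to 1310 CPM in WT. The library labelled KO p210 replicate 2 thus held Cdk6 at the WT p210 level, and Cdk6 was not called different between KO p210 and WT p210 (log2 fold change -0.86, adjusted p = 0.147, edgeR's quasi-likelihood test). For each comparison, the count of members called is given with and without that library, as are the members whose calls change without it. Of the markers of the sorted progenitor phenotype, Kit, Ly6a, Cd34, Flt3, Slamf1 and Cd48 together summed to 634 to 1320 CPM in KO p210, 774 to 966 CPM in WT p210, 1220 to 1710 CPM in untransformed KO and 1280 to 2150 CPM in untransformed WT libraries. Most of the sum in p210 libraries was Cd34 and Cd48, with means of 640 and 232 CPM in KO p210 and 596 and 232 CPM in WT p210. Ly6a averaged 10.9 CPM in KO p210 and 12.7 CPM in WT p210, and Slamf1 0.1 and 3.28 CPM. Kit and Flt3 fell with p210 in both genotypes, as given under the other observations. Cd3e, Cd8a and Ms4a1, which define T and B cells, had no read in any library. The whole list of 10 lineage antigen genes, which holds these 3, was not silent. It summed to 152 to 400 CPM in KO p210 and 51.3 to 257 CPM in WT p210 libraries. In untransformed libraries it summed to 183 to 224 CPM in KO and 8.57 to 70.2 CPM in WT. Of its 3 tested genes, 1 was called higher in untransformed KO than in untransformed WT.

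Per transcript length, the most abundant members in KO p210 libraries were Cd48 with a mean of 590 TPM (counts scaled by gene length and library), Adgrg1 (GPR56, an adhesion G protein-coupled receptor) with 304 TPM, Cd34 with 263 TPM and Etv6 with 185 TPM. The order in untransformed WT libraries began with Adgrg1 at 943 TPM, Cd34 at 493 TPM, Angpt1 at 486 TPM and Cd48 at 423 TPM. Hlf was scarcer and averaged 0.0849 ± 0.0353 TPM in KO p210 and 11.1 ± 12.3 TPM in WT p210, and 10.8 ± 4.29 TPM in untransformed KO and 48.9 ± 27.7 TPM in untransformed WT libraries (SD, n = 4, 3, 3 and 4). At the bottom of the range, Nkx2-3, a homeobox gene, had 1 count in untransformed KO and 1 in untransformed WT libraries. Fgd5, an exchange factor gene that marks stem cells in mouse bone marrow, had 2 counts over the KO p210 libraries and 1 over the untransformed WT libraries. Robo4, a guidance receptor gene, had no read in the 7 p210 libraries and at most 0.412 CPM in any untransformed one.

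**Figure D1:**
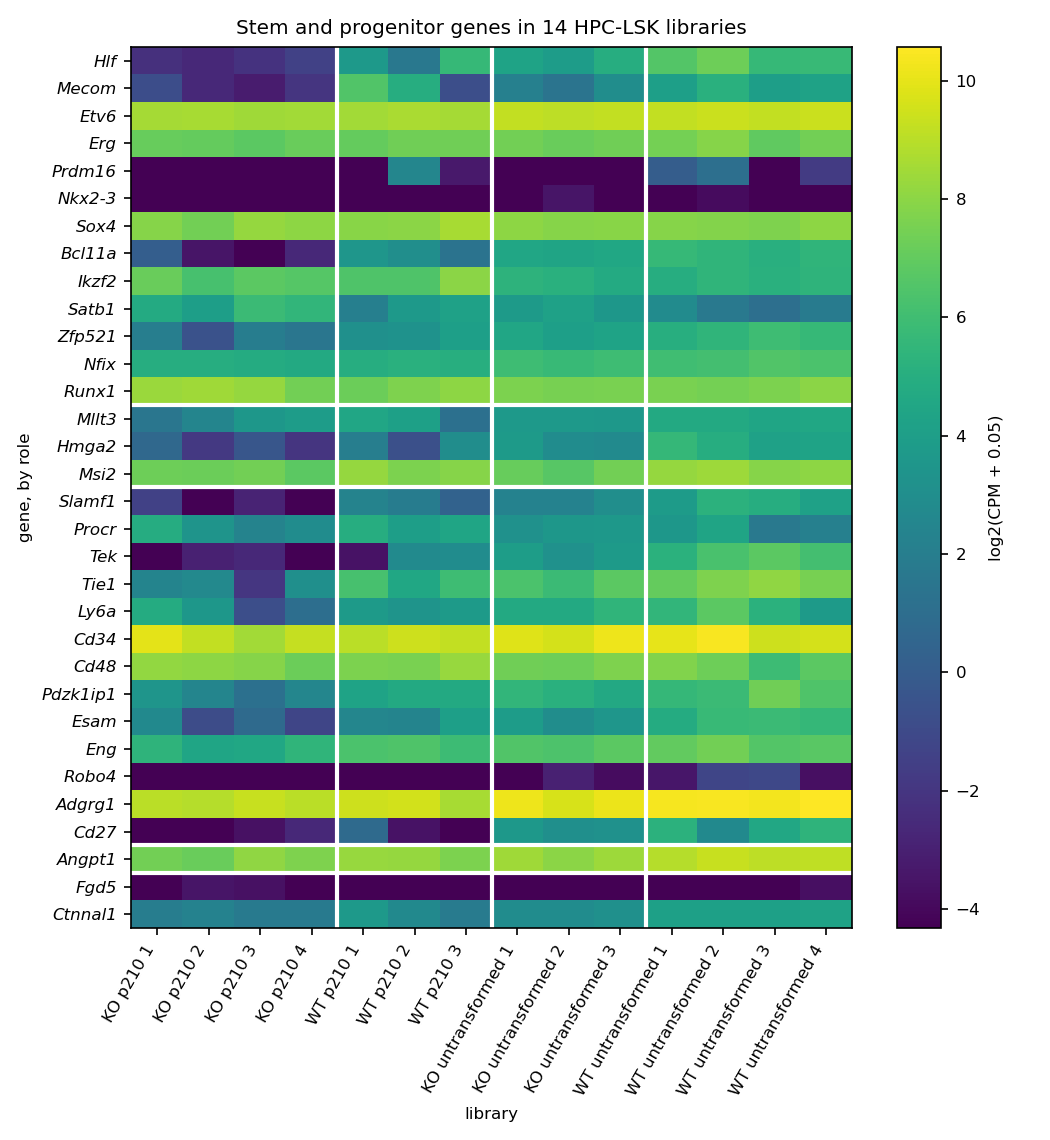
Heat map of log2(CPM + 0.05) for the 32 genes (rows, by role) in the 14 libraries (columns, by group). The rows of Hlf, Mecom, Bcl11a, Slamf1 and Tek are near the bottom of the scale in all 4 KO p210 libraries, while Etv6, Erg, Sox4, Runx1, Cd34, Cd48 and Adgrg1 are abundant in all 14.

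The first question was which stem cell genes differ between transformed lines that lack and that carry Cdk6. In KO p210 lines 9 of the 29 tested members were lower than in WT p210 lines and none was higher. The 9 were the transcription factor genes Hlf, Mecom, Bcl11a and Zfp521 (4 of 12 tested) and the surface marker genes Slamf1, Tek, Tie1, Pdzk1ip1 and Eng (5 of 12 tested). The smallest of the 9 differences was that of Eng, at a log2 fold change of -1.22, and the widest that of Mecom, at -7.67. Over all 14512 genes tested, 3.56% were lower and 0.882% higher at the same threshold, an adjusted p under 0.05 by edgeR's quasi-likelihood test on all 14 libraries. The median log2 fold change was -0.82 over the tested members and 0.0 over all genes, with 25 of the 29 members and 50.2% of all genes below 0. With the library labelled KO p210 replicate 2 left out, the median was -0.73 over the members and 0 over all genes, with 26 of 29 members below 0. In bulk RNA, fewer cells of a type and less RNA per cell cannot be told apart.

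The calls depended on how the spread was estimated. DESeq2 on the same libraries called 13 members lower (also Ctnnal1, Cd27, Hmga2 and Msi2) and 1, Satb1, higher, while limma-voom called 3 lower (Bcl11a, Tie1 and Eng). Of the 14512 genes tested, DESeq2 called 1006 lower and 448 higher, and limma-voom 290 lower and 96 higher. A fit to the 7 p210 libraries alone called no member, and of all genes 3 lower and 2 higher, with 1793 genes at an unadjusted p under 0.05. In the fit to all libraries 16 members stood at an unadjusted p under 0.05. Without the library labelled KO p210 replicate 2 the count was 5 (Hlf, Mecom, Bcl11a, Zfp521 and Slamf1), against 1.78% of all genes lower. Without WT p210 replicate 1 it was also 5 (Hlf, Mecom, Bcl11a, Slamf1 and Tek), against 249 of 14854 genes lower. All 9 fold changes were below 0 within each of the 2 codes. For every one of them but Tek this sign was fixed in advance, because all KO p210 libraries lay below all WT p210 libraries. In the first code 5 members were called (Hlf, Mecom, Bcl11a, Tie1 and Mllt3). Of all genes, 453 of 14244 were lower in the first code alone. The second code holds 1 WT p210 library, which is assumed there to vary like the other groups.

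Hlf (chr11:90336536-90390895, minus strand, GRCm38), a PAR-domain leucine zipper factor that is among the most restricted markers of stem cells, had 0.157, 0.116, 0.175 and 0.312 CPM in KO p210 libraries 1 to 4, against 12.8, 3.09 and 50.5 CPM in WT p210 libraries 1 to 3. All 4 KO p210 libraries were near the detection limit, with 3 to 8 counts each, and lay below every WT p210 library. This gave a log2 fold change of -6.82 ± 0.95 (SE) with an adjusted p of 0.00323, and fold changes of -5.86 within the first code (adjusted p = 0.0382) and -7.72 within the second code. Leaving out the library labelled KO p210 replicate 2 gave -6.65 (adjusted p = 0.0164).

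Mecom (chr3:29951296-30548008, minus strand), which encodes the zinc finger factor EVI1, had 0.523, 0.116, 0.0582 and 0.195 CPM in KO p210 libraries, against 93.5, 31.1 and 0.558 CPM in WT p210 libraries. The groups did not overlap, but WT p210 replicate 3, the only WT p210 library of the second code, stood only just above the highest KO library. The log2 fold change was -7.67 ± 1.30 (adjusted p = 0.008), -7.7 within the first code (adjusted p = 0.0178) and -2.18 within the second (adjusted p = 0.305). The large fold thus belonged to the 2 first-code lines. Leaving out the library labelled KO p210 replicate 2 gave -7.47 (adjusted p = 0.0342).

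Bcl11a (chr11:24078056-24174123, plus strand), a zinc finger repressor needed for lymphoid development, had 1.05, 0.0386, 0 and 0.117 CPM in KO p210 libraries, against 11.5, 8.27 and 2.49 CPM in WT p210 libraries. No KO library reached the lowest WT library, and replicate 1 was the highest of the KO libraries. The log2 fold change was -4.85 ± 0.87 (adjusted p = 0.0105), or -4.47 (adjusted p = 0.0355) without the library labelled KO p210 replicate 2. Zfp521, a zinc finger factor gene of immature haematopoietic cells, had 4.02, 0.618, 3.9 and 2.85 CPM in KO p210 libraries, against 8.7, 9.64 and 17.1 CPM in WT p210 libraries. It was lower in every KO library but stayed detectable in all of them. Its log2 fold change was -2.05 ± 0.47 (adjusted p = 0.0304). Leaving out WT p210 replicate 1 raised the adjusted p to 0.0528, WT p210 replicate 3 to 0.0778 and KO p210 replicate 4 to 0.0615. With the library labelled KO p210 replicate 2 left out it was 0.0186.

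The other 8 tested transcription factor genes were not called. Etv6, an ETS repressor that adult stem cells depend on, averaged 368 ± 18.7 CPM in KO p210 and 376 ± 23.4 CPM in WT p210 libraries (SD, n = 4 and 3), a log2 fold change of -0.03 ± 0.07 (adjusted p = 0.848). Erg, an ETS activator of stem cell genes, averaged 130 CPM in KO p210 and 153 CPM in WT p210, and Sox4, an HMG-box factor of progenitors, averaged 242 CPM in KO p210 and 297 CPM in WT p210. Runx1, a core factor of blood formation, averaged 280 ± 78.5 CPM in KO p210 and 207 ± 56.4 CPM in WT p210 (log2 fold change 0.44, adjusted p = 0.339). It was called higher within the first code alone. Ikzf2 (log2 fold change -0.41, adjusted p = 0.551) and Nfix (-0.18, adjusted p = 0.461) are described with transformation. Prdm16, a stem cell maintenance factor, had no count in any of the 7 KO libraries. In WT p210 libraries it had 0, 171 and 1 counts, so that 1 library held nearly all of its reads (adjusted p = 0.204). Satb1, a chromatin organiser of lymphoid progenitors, had the only log2 fold change above 1 among the members, 1.61 ± 0.56 (adjusted p = 0.128), with 16.0 to 55.9 CPM in KO p210 and 4.18 to 18.0 CPM in WT p210 libraries.

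Among the surface markers, Slamf1 (chr1:171767127-171801184, plus strand), the SLAM receptor that separates stem cells from most progenitors in mouse bone marrow, had 0.314, 0, 0.0873 and 0 CPM in KO p210 libraries, against 4.93, 3.7 and 1.22 CPM in WT p210 libraries. The KO libraries held 0 to 6 counts each and all lay below the WT libraries. The log2 fold change was -5.15 ± 0.83 (adjusted p = 0.00649), or -4.74 (adjusted p = 0.0207) without the library labelled KO p210 replicate 2. Cd48, the gene of another SLAM receptor that marks progenitors and lies 61.9 kb from Slamf1 on chromosome 1, averaged 232 ± 58.4 CPM in KO p210 and 232 ± 61.2 CPM in WT p210 libraries (log2 fold change 0.0, adjusted p = 1.0).

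Tek (chr4:94739289-94874976, plus strand) had 0, 0.0772, 0.116 and 0 CPM in KO p210 libraries, against 0.0314, 7.06 and 7.67 CPM in WT p210 libraries. WT p210 replicate 1 held 1 count and overlapped the KO libraries, so the call (log2 fold change -6.34 ± 1.28, adjusted p = 0.0174) rested on the other 2 WT libraries. Tie1 (chr4:118471191-118490061, minus strand) had 5.23, 6.45, 0.204 and 8.38 CPM in KO p210 libraries, against 74.4, 23.7 and 61.7 CPM in WT p210 libraries. Every KO library was below every WT library, and KO p210 replicate 3 was far below the other KO libraries. Its log2 fold change was -3.41 ± 0.72 (adjusted p = 0.022). Angpt1, the ligand gene, averaged 200 ± 55.7 CPM in KO p210 and 268 ± 60.4 CPM in WT p210 libraries and was not called (log2 fold change -0.42 ± 0.21, adjusted p = 0.3). Both receptor genes were thus called lower and the ligand gene was not.

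Pdzk1ip1 (chr4:115088708-115093899, plus strand), which encodes a small membrane protein used as a stem cell reporter in mice, had 10.8, 5.33, 2.18 and 5.58 CPM in KO p210 libraries, against 20.2, 26.9 and 26.4 CPM in WT p210 libraries. Its log2 fold change was -2.05 ± 0.49 (adjusted p = 0.0369). Eng (chr2:32646595-32682669, plus strand), the gene of the TGF-beta co-receptor endoglin, had 41.1, 21.5, 23.4 and 43.2 CPM in KO p210 libraries, against 80.1, 86.9 and 58.4 CPM in WT p210 libraries. Neither gene's groups overlapped, and both genes stayed well above detection in all KO libraries. Eng's log2 fold change was -1.22 ± 0.27 (adjusted p = 0.0269). Without the library labelled KO p210 replicate 2 the adjusted p was 0.0676 for Eng, 0.0985 for Pdzk1ip1, 0.0591 for Tie1 and 0.0556 for Tek, with fold changes of -1.07, -2.0, -3.56 and -6.52. Pdzk1ip1 lost its call in 19 of 28 alternatives, among them the leaving out of any 1 of the 3 WT p210 libraries or of KO p210 replicate 3 or 4. Eng lost its call in 10, among them without KO p210 replicate 3 or WT p210 replicate 1 or 2, and Tie1 in 8, among them without WT p210 replicate 1.

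**Figure D2:**
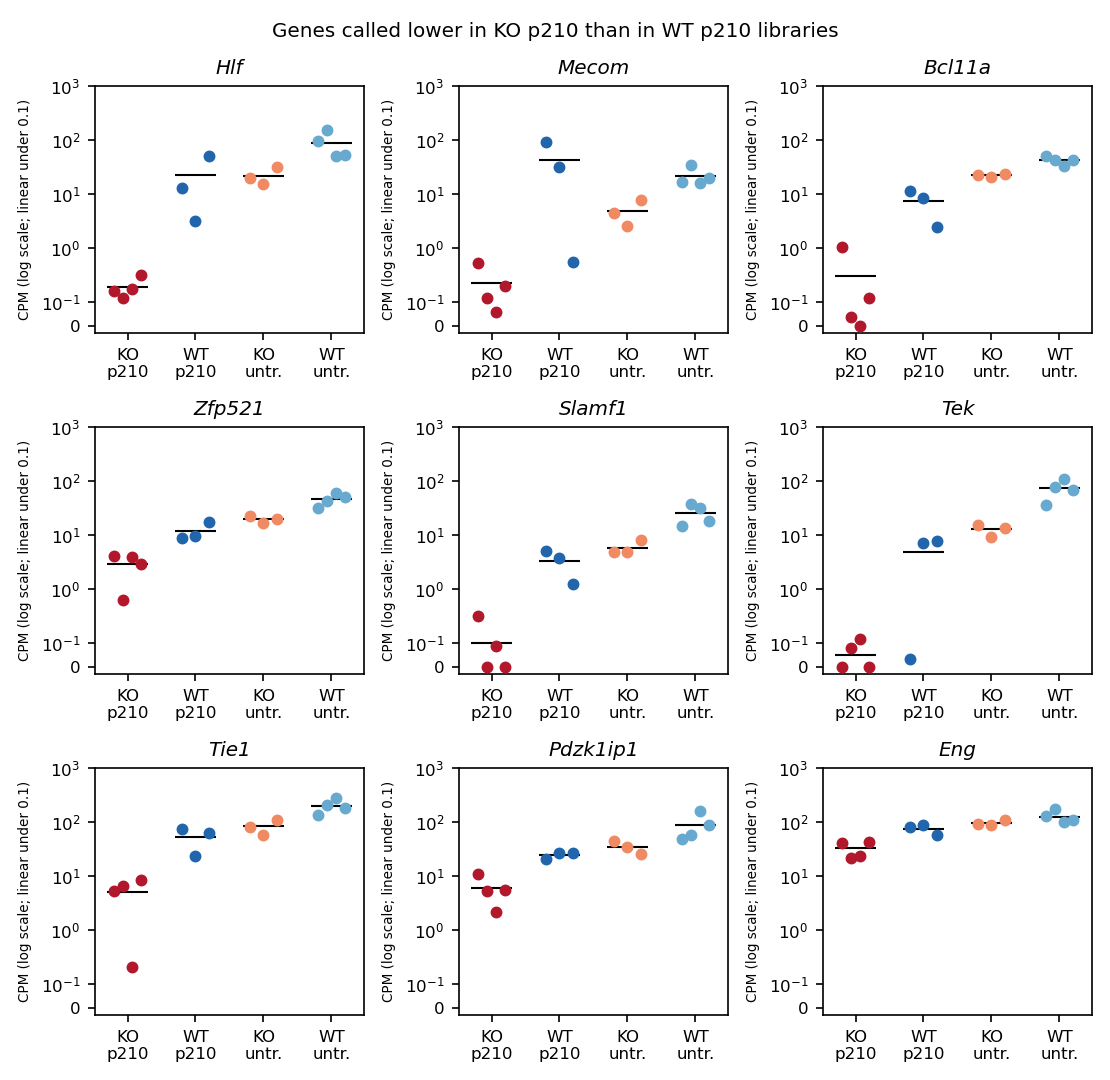
CPM (vertical axes, logarithmic above a linear stretch near 0) of the 9 genes called lower in KO p210 than in WT p210, 1 point per library and a line at each group mean, with groups from left to right KO p210, WT p210, KO untransformed and WT untransformed. KO p210 points are lowest in each panel, except that WT p210 replicate 1 for Tek (0.0314 CPM) falls among them and WT p210 replicate 3 for Mecom (0.558 CPM) lies just above them.

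The remaining 7 tested surface markers were not called. Cd34 averaged 640 ± 258 CPM in KO p210 and 596 ± 87.8 CPM in WT p210, and Adgrg1 averaged 545 ± 70.3 CPM in KO p210 and 611 ± 193 CPM in WT p210. Ly6a, the Sca-1 gene, had 0.553 to 29.1 CPM in KO p210 libraries and 10.3 to 13.9 CPM in WT p210 libraries, so that KO libraries lay on both sides of the WT libraries. Procr had 5.06 to 29.4 CPM in KO p210 and 16.2 to 31.1 CPM in WT p210. Esam, an endothelial-type adhesion molecule gene, had 0.39 to 6.64 CPM in KO p210 and 5.14 to 17.1 CPM in WT p210 (log2 fold change -2.04 ± 0.79, adjusted p = 0.174). Cd27, a TNF receptor family gene of multipotent progenitors, was nearly silent in both, with 0 to 0.117 CPM in KO p210 and 1.7, 0.0336 and 0 CPM in WT p210.

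Of the chromatin and RNA regulators, Hmga2, an architectural DNA-binding protein gene of fetal stem cells, had 0.195 to 1.57 CPM in KO p210 and 0.571 to 7.82 CPM in WT p210 (log2 fold change -2.61 ± 0.81, adjusted p = 0.0955). Msi2, an RNA-binding protein gene, had 115 to 171 CPM in KO p210 and 196 to 301 CPM in WT p210, with no overlap and an adjusted p of 0.0653. Mllt3, a reader of acylated histones, had 2.77 to 14.8 CPM in KO p210 and 2.18 to 22.8 CPM in WT p210. Ctnnal1, a catenin-like gene, averaged 3.87 ± 0.659 CPM in KO p210 and 7.65 ± 4.48 CPM in WT p210 (adjusted p = 0.0887). Over the 29 members, 10 had every KO p210 library below every WT p210 library, against 7.7% of all genes tested. They were the called genes other than Tek, with Nfix and Msi2.

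Promoters of 4 of the genes called lower are printed because these 4 genes were called lower in KO p210 and, for Mecom and Eng, because the text returns to them. They run from 250 bases before to 50 bases after the RefSeq start (GRCm38.p6, 300 bases each, given 5′ to 3′ on the gene's strand). Capitals mark any of 6 short motifs searched on both strands: the GATA-type motifs AGATAA with TGATAA, the ETS-type motif CAGGAAG, the RUNX-type motif TGTGGT and the E-box motifs CAGCTG with CACGTG.
Hlf, chr11:90390868-90391167, minus strand: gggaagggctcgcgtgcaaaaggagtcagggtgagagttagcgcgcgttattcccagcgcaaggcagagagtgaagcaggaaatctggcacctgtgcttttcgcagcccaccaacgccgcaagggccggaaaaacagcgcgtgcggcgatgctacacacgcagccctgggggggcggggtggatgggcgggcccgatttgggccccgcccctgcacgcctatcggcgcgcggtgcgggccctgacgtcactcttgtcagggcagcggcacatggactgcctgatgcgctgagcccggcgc
Mecom, chr3:30509710-30510009, minus strand: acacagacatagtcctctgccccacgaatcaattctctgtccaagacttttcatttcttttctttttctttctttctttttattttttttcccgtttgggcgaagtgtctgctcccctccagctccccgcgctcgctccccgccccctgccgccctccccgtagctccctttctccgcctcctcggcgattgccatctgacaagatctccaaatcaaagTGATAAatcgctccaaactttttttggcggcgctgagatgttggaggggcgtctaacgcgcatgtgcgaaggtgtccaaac
Slamf1, chr1:171766882-171767181, plus strand: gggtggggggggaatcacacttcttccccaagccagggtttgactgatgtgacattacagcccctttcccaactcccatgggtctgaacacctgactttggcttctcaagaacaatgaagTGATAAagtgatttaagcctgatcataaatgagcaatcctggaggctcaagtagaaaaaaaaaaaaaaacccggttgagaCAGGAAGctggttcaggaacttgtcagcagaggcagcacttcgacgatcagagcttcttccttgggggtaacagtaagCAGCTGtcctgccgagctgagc
Eng, chr2:32646345-32646644, plus strand: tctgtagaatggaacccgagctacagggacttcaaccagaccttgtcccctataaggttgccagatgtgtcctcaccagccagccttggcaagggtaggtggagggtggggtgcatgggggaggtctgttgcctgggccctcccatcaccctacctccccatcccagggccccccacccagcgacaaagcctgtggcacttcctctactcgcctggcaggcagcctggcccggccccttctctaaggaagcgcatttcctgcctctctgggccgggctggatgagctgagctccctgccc
The Hlf promoter had no match to the 6 motifs, a GC content of 67.3% and 30 CpG dinucleotides. The Mecom promoter printed, which starts 38249 bases inside the gene's limits in the count files, had 1 TGATAA and 19 CpG. The table holds another Mecom promoter (chr3:30013155-30013454, minus strand), with no match and 9 CpG. The Slamf1 promoter had TGATAA followed by CAGGAAG followed by CAGCTG, with 4 CpG, and the Eng promoter had no match and 6 CpG.

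The RefSeq table held 42 promoters for 27 of the 32 genes. CAGGAAG stood in 10 of these (23.8%) and in 13.3% of all 32851 promoters, CAGCTG in 19.0% and 16.3%, and CACGTG in 11.9% and 7.15%. TGTGGT stood in 9.52% of the members' promoters and 16.8% of all, AGATAA in 4.76% and 11.2%, and TGATAA in 4.76% and 9.05%. Of the 9 promoters of members called lower in KO p210, TGATAA stood in 2, that of Slamf1 and the printed promoter of Mecom. The motif CAGCTG also stood in 2 of these 9, while TGTGGT stood in 0. The motif AGATAA stood in 1, CAGGAAG likewise stood in 1, and CACGTG likewise stood in 1. Zfp521, also called lower, had no promoter among the 9. Whether any motif goes with the calls was not tested. CAGGAAG was found in promoters of Cd34, Cd48, Erg, Etv6, Nfix, Robo4, Runx1 and Satb1 as well as Slamf1. Some genes have several promoters that overlap. A match describes these letters in these windows and is no measurement of binding.

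The same comparison before transformation asked whether the genotypes already differed in cells grown with cytokines. In untransformed KO lines 3 members were lower than in untransformed WT lines, against 6.5% of all genes tested, and 1 was higher, against 8.73%. Msi2 averaged 138 ± 34.7 CPM in KO and 282 ± 43.4 CPM in WT libraries (SD, n = 3 and 4; log2 fold change -1.03 ± 0.21 SE, adjusted p = 0.0108). Angpt1 averaged 312 ± 50.4 CPM in KO and 558 ± 68.0 CPM in WT (-0.84 ± 0.22, adjusted p = 0.0273). Ctnnal1 averaged 8.0 ± 0.828 CPM in KO and 17.9 ± 0.612 CPM in WT (-1.16 ± 0.31, adjusted p = 0.029). Satb1 was the gene called higher, with 13.8, 18.7 and 11.7 CPM in KO and 7.1, 3.21, 2.11 and 3.64 CPM in WT libraries (1.88 ± 0.54, adjusted p = 0.0378). The groups did not overlap for any of these 4 genes. The share of all genes without overlap in untransformed lines was not computed, so absence of overlap there has no background.

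None of the 9 genes lower in KO p210 was called in untransformed lines, although all 9 fold changes were negative. Hlf had 19.5, 15.1 and 31.0 CPM in untransformed KO libraries, against 94.9, 156, 49.7 and 51.9 CPM in untransformed WT libraries. The groups did not overlap, and the log2 fold change was -2.01 ± 0.73 (adjusted p = 0.0826). Slamf1 had 4.73, 4.78 and 8.02 CPM in untransformed KO libraries, against 14.6, 37.2, 30.9 and 18.5 CPM in WT (-2.11 ± 0.68, adjusted p = 0.0551). For Mecom the values were 2.59 to 7.68 CPM in KO and 16.1 to 34.5 CPM in WT (-2.14 ± 1.03, adjusted p = 0.175). Tek had 9.06 to 15.3 CPM in KO and 36.1 to 111 CPM in WT (-2.53 ± 0.88, adjusted p = 0.0715). Eng had groups that overlapped, with 86.5 to 111 CPM in KO and 97.8 to 171 CPM in WT (-0.39 ± 0.27, adjusted p = 0.348).

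The median over the tested members was -0.92 in untransformed lines, against -0.02 over all genes, with 25 of 29 members below 0. The count of genes called lower ranged widely with the test. A fit to the 7 untransformed libraries alone called 13 members lower, among them Hlf, Mecom, Bcl11a, Zfp521, Slamf1, Tek and Tie1. The count was 12 with limma-voom, 9 with DESeq2, 0 without KO untransformed replicate 2 and 1 without KO untransformed replicate 1, KO untransformed replicate 3 or WT untransformed replicate 4. It was 8 without WT p210 replicate 3, 6 without WT untransformed replicate 1, and 5 without any 1 of KO p210 replicates 1 to 4, the library labelled KO p210 replicate 2 included, where Slamf1 (adjusted p = 0.0492) and Zfp521 (0.0187) were added. Over all genes, 1665 of 13941 were lower in the untransformed libraries alone, 1203 of 14512 with limma-voom and 1724 of 14512 with DESeq2. Without KO untransformed replicates 1, 2 and 3 in turn, 299 of 15050, 72 of 15045 and 783 of 14929 were lower. Without WT untransformed replicates 1 and 4 in turn, 1315 of 14493 and 470 of 14367 were lower. The figure was 1371 of 14970 without WT p210 replicate 3 and 820 of 14526 without the library labelled KO p210 replicate 2. Msi2 lost its call in 2 of 28 alternatives, Ctnnal1 in 10, Angpt1 in 11 and Satb1 in 14. Satb1 was not called higher without any 1 of WT untransformed replicates 2, 3 and 4 or of the 3 KO untransformed replicates.

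**Figure D3:**
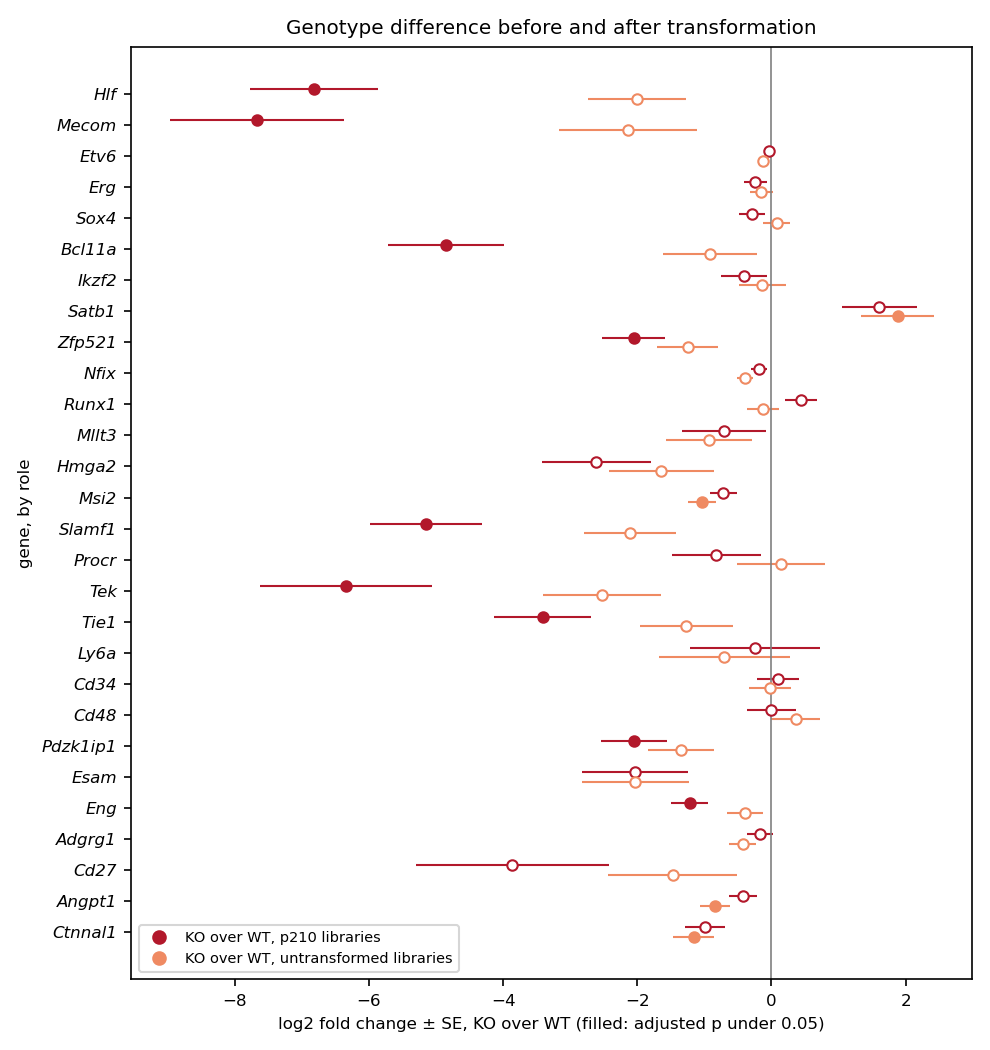
Log2 fold change of KO against WT with its standard error (horizontal axis) for 28 of the tested members (rows), in p210 lines (red) and in untransformed lines (orange), with filled points for an adjusted p under 0.05. Prdm16 is left out because no KO library had a count. Most points lie left of 0 in both states, and the red points of Mecom, Hlf, Tek, Slamf1 and Bcl11a lie farthest left, between -7.67 and -4.85.

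Markers of some other blood cells also differed between genotypes. Of 14 megakaryocyte and platelet genes, 6 were lower in untransformed KO than in untransformed WT, against 6.5% of all genes tested. In KO p210, 3 were lower than in WT p210, against 3.56%. Their summed level was 2170 to 3210 CPM in KO p210, 3190 to 3890 CPM in WT p210, 1560 to 2280 CPM in untransformed KO and 2890 to 8030 CPM in untransformed WT libraries. For 20 neutrophil and monocyte genes the sum was 8080 to 24900 CPM in KO p210 and 2940 to 8980 CPM in WT p210, and 23800 to 33400 CPM in untransformed KO and 413 to 10700 CPM in untransformed WT libraries. Of the 19 tested, none was called in p210 lines and 3 were higher in untransformed KO, against 8.73% of all genes. Of 7 tested erythroid genes 3 were lower in KO p210 and 1 in untransformed KO, against 3.56% and 6.5% of all genes. None of the 11 tested mast cell and basophil genes was called in KO p210 against WT p210. In p210 lines no megakaryocyte and platelet gene and 1 erythroid gene were called lower once the library labelled KO p210 replicate 2 was left out. Their part in the members' differences was not tested. Tek, Tie1, Esam, Eng and Robo4 are also endothelial genes. The endothelial markers Cldn5, Sox17 and Ptprb had no read in any library, and the 14-gene endothelial sum, mostly Pecam1, was 578 to 774 CPM in KO p210 and 551 to 765 CPM in WT p210.

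Transformed and untransformed cells were compared within each genotype to see which stem cell genes are kept by p210 lines. In KO lines 17 members were lower in p210 cells, against 18.0% of all genes tested, and 1 was higher, against 19.2%. In WT lines 15 were lower, against 17.6%, and 2 were higher, against 21.9%. The median log2 fold change was -1.01 over members and -0.01 over all genes in KO lines, and -1.06 over members and 0.02 over all genes in WT lines. Both comparisons called Hlf, Bcl11a, Zfp521, Etv6, Nfix, Hmga2, Slamf1, Tek, Pdzk1ip1, Esam, Eng, Adgrg1, Cd27, Angpt1 and Ctnnal1 lower and Ikzf2 higher. Mecom and Tie1 were called lower in KO lines and not in WT lines, and Satb1 was called higher in WT lines and not in KO lines.

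Etv6 averaged 368 ± 18.7 CPM in KO p210 and 576 ± 23.2 CPM in untransformed KO libraries (log2 fold change -0.65 ± 0.07, adjusted p = 6.68e-05), and 376 ± 23.4 CPM in WT p210 and 625 ± 38.2 CPM in untransformed WT libraries (-0.73 ± 0.07, adjusted p = 3.04e-05). Nfix, a nuclear factor I gene that supports stem cell survival, averaged 29.1 ± 2.26 CPM in KO p210 and 58.7 ± 6.01 CPM in untransformed KO, and 32.9 ± 1.41 CPM in WT p210 and 76.8 ± 12.9 CPM in untransformed WT. These 2 factors varied little between libraries of a group. Adgrg1 averaged 545 ± 70.3 CPM in KO p210 and 1020 ± 194 CPM in untransformed KO, and 611 ± 193 CPM in WT p210 and 1380 ± 112 CPM in untransformed WT. Cd27 had 0 to 0.117 CPM in KO p210 and 8.55 to 12.1 CPM in untransformed KO (-7.89 ± 1.36, adjusted p = 0.0011), and 0 to 1.7 CPM in WT p210 and 6.65 to 41.7 CPM in untransformed WT (-5.5 ± 1.19, adjusted p = 0.00378). Transformed lines of both genotypes had thus all but lost this receptor transcript.

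Ikzf2, the gene of the Ikaros family factor Helios, rose with p210 in both genotypes. It had 141, 75.2, 112 and 101 CPM in KO p210 libraries and 40.0, 35.4 and 27.4 CPM in untransformed KO libraries (log2 fold change 1.65 ± 0.36, adjusted p = 0.00436). In WT lines it had 87.4, 88.8 and 253 CPM in p210 and 31.4, 43.4, 34.9 and 40.9 CPM in untransformed libraries (1.92 ± 0.34, adjusted p = 0.00117). Every p210 library was above every untransformed one, and WT p210 replicate 3 was the highest. Satb1 had 4.18, 13.4 and 18.0 CPM in WT p210 and 2.11 to 7.1 CPM in untransformed WT libraries (1.57 ± 0.54, adjusted p = 0.0357), so the groups overlapped. It was no longer called in WT lines without WT untransformed replicate 3 or 4 or WT p210 replicate 2 or 3, which left 1 member higher. Its call was also lost without WT untransformed replicate 2. In KO lines 2 members were higher without WT p210 replicate 1 or the library labelled KO p210 replicate 2, Satb1 being the added one (adjusted p = 0.0451 and 0.046), and 2 without KO p210 replicate 4, where Runx1 was added (0.00944). Without the library labelled KO p210 replicate 2, 15 members were lower in KO lines, with Esam (0.0716) and Angpt1 (0.0804) no longer called. In WT lines the calls of Hlf (adjusted p = 0.048) and Eng (0.0487) were close to the threshold and were lost in 20 and 15 of 29 alternatives, as was that of Satb1 in 14 and that of Esam in 11. Hlf in WT lines had an adjusted p of 0.0596 without the library labelled KO p210 replicate 2, which left 14 members lower. Erg, Sox4, Runx1, Msi2, Mllt3, Procr, Ly6a, Cd34 and Cd48 were called in neither genotype.

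The paired lines showed how uneven the change was. In the 3 KO lines present in both states, Hlf in p210 cells stood at 0.802%, 0.77% and 1.01% of the level in the same untransformed line (first code A, first code B and second code B). In the 3 WT lines it stood at 13.5%, 1.99% and 101% (first code A, first code B and second code A). Hlf was thus under 2% in all 3 KO lines and in 1 WT line, and 1 WT line kept its full level. For Mecom the KO lines stood at 11.7%, 4.48% and 2.54%, and the WT lines at 555%, 90.0% and 3.47%. The WT line that kept Hlf was the one that lost Mecom. Slamf1 stood at 6.63%, 0% and 0% in the KO lines and at 33.7%, 9.93% and 3.95% in the WT lines. Eng stood at 44.9%, 24.8% and 39.1% in the KO lines and at 62.9%, 50.8% and 59.7% in the WT lines, with the lowest WT line above the highest KO line. Over the members present in both states the median was 47.1%, 50.8% and 40.5% in the KO lines and 56.2%, 50.3% and 37.2% in the WT lines.

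With the line as a block, 15 members were called lower and 1 higher in KO lines, where Mecom (adjusted p = 0.0912) and Ctnnal1 (0.0868) lost their calls. In WT lines 14 were called lower and 1 higher. There Hlf (adjusted p = 0.119), Slamf1 (0.0609) and Satb1 (0.23) lost their calls and Tie1 (0.0242) gained one.

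**Figure D4:**
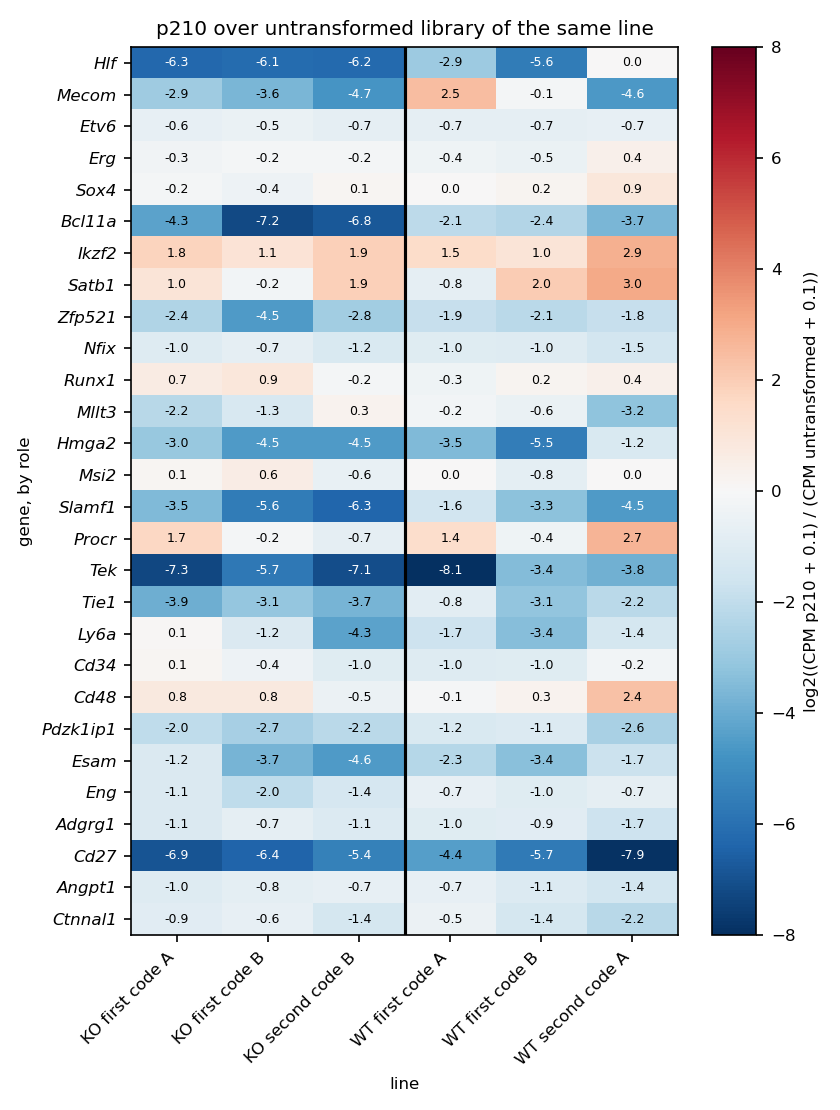
Heat map of log2((CPM in p210 + 0.1)/(CPM in untransformed + 0.1)) for 28 members (rows) in the 6 lines present in both states (columns, KO lines left of WT lines). Hlf, Mecom, Bcl11a, Slamf1 and Tek are strongly below 0 in all 3 KO lines and vary among the WT lines, with Hlf kept in the second-code line and Mecom in the first-code lines. Ikzf2 is above 0 in all 6.

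Whether p210 had a different effect in KO than in WT lines was tested as an interaction of genotype and transformation. By edgeR's quasi-likelihood test no member passed, and of all genes 0.0345% passed below 0 and 0.0% above. Unadjusted p fell under 0.05 for 7 of the 29 members and for 2041 of all genes. The estimates furthest below 0 among genes with counts in every group were Mecom at -5.53 ± 1.55 (SE, adjusted p = 0.209), Hlf at -4.82 ± 1.17 (adjusted p = 0.16), Bcl11a at -3.93 ± 1.09 (adjusted p = 0.206), Tek at -3.81 ± 1.61 (adjusted p = 0.33) and Slamf1 at -3.04 ± 1.04 (adjusted p = 0.272). DESeq2 called 4 of these lower, namely Hlf (adjusted p = 0.000645), Mecom (0.00805), Slamf1 (0.0368) and Bcl11a (0.0451), and limma-voom called none. Of the 14512 genes tested, DESeq2 called 276 lower and 137 higher, and limma-voom 4 lower and 0 higher. With edgeR, Mecom passed without WT p210 replicate 3 (adjusted p = 0.0214), Bcl11a without KO p210 replicate 1 (0.0241) and Hlf without WT p210 replicate 2 (0.0461). Of all genes tested, 41, 13 and 24 passed below 0 in these fits, in the same order. Leaving out the library labelled KO p210 replicate 2 gave estimates of -5.34 for Mecom, -4.64 for Hlf, -3.55 for Bcl11a, -3.98 for Tek and -2.63 for Slamf1, with adjusted p from 0.285 to 0.411. That a gene was called lower in KO p210 and not in untransformed KO is therefore no shown difference between the states.

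A gene was counted as kept in WT p210 where its mean there was at least 1 CPM and at least 0.5 of the untransformed WT mean, and as lost in KO p210 where it was called lower than in WT p210 and its mean was under 0.5 of the untransformed KO mean. The rule counted 14 members as kept in WT p210: the transcription factor genes Mecom, Etv6, Erg, Prdm16, Sox4, Ikzf2, Satb1 and Runx1, the regulators Mllt3 and Msi2, and the surface markers Procr, Cd34, Cd48 and Eng. Prdm16 was kept through 1 library, with 0, 5.75 and 0.0508 CPM in WT p210 libraries 1 to 3. All 9 members lower in KO p210 met the condition for loss. The share of all genes tested that meet the rule was not computed, so its counts have no background. Mecom and Eng met both, 1 transcription factor and 1 surface marker. By edgeR's quasi-likelihood test on all 14 libraries neither passed the interaction, with -5.53 ± 1.55 for Mecom (adjusted p = 0.209) and -0.83 ± 0.38 for Eng (adjusted p = 0.353). Eng was also called lower with p210 in WT lines (-0.74 ± 0.27, adjusted p = 0.0487). A loss particular to KO lines is therefore not shown. Mecom in KO p210 stood at 4.54% of its untransformed KO mean, and in WT p210 at 192% of its untransformed WT mean. Eng stood at 33.6% in KO p210 and at 59.7% in WT p210.

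The other 7 genes lost in KO p210 stood below 0.5 of the untransformed mean in WT p210 as well. Hlf stood at 0.868% in KO p210 and 25.1% in WT p210, Bcl11a at 1.34% and 17.5%, Slamf1 at 1.72% and 13%, and Tek at 0.381% and 6.69%, each of the untransformed mean of its own genotype. Tie1 stood at 6.13% in KO p210 and 26.7% in WT p210, Zfp521 at 14.5% and 25.4%, and Pdzk1ip1 at 17.2% and 27.7%. These 7 genes thus had lower means in both p210 groups than in untransformed cells of the same genotype, and the lowest mean of the 4 groups in KO p210. Nfix, Hmga2, Ly6a, Esam, Adgrg1, Cd27, Angpt1 and Ctnnal1 were below 0.5 of the untransformed mean in WT p210 and were not called lower in KO p210. Kept in WT p210 and not called lower in KO p210 were 12 members, with KO p210 levels of 63.9% (Etv6) to 313% (Ikzf2) of the untransformed KO mean where this had counts.

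The pair of genes depended on the libraries and the cutoff. Mecom's mean in WT p210 came from WT p210 replicates 1 and 2, the first-code lines, and in the second code alone the rule took Hlf instead. Eng was not taken without the library labelled KO p210 replicate 2, without KO p210 replicate 3, or without WT p210 replicate 1 or 2, each of which left Mecom alone, and without WT p210 replicate 3 the rule took Mecom, Eng and Ctnnal1. With a share of 0.25 in place of 0.5 the rule took 5 genes (Hlf, Mecom, Zfp521, Tie1 and Pdzk1ip1), and with 0.75 it took Mecom alone.

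**Figure D5:**
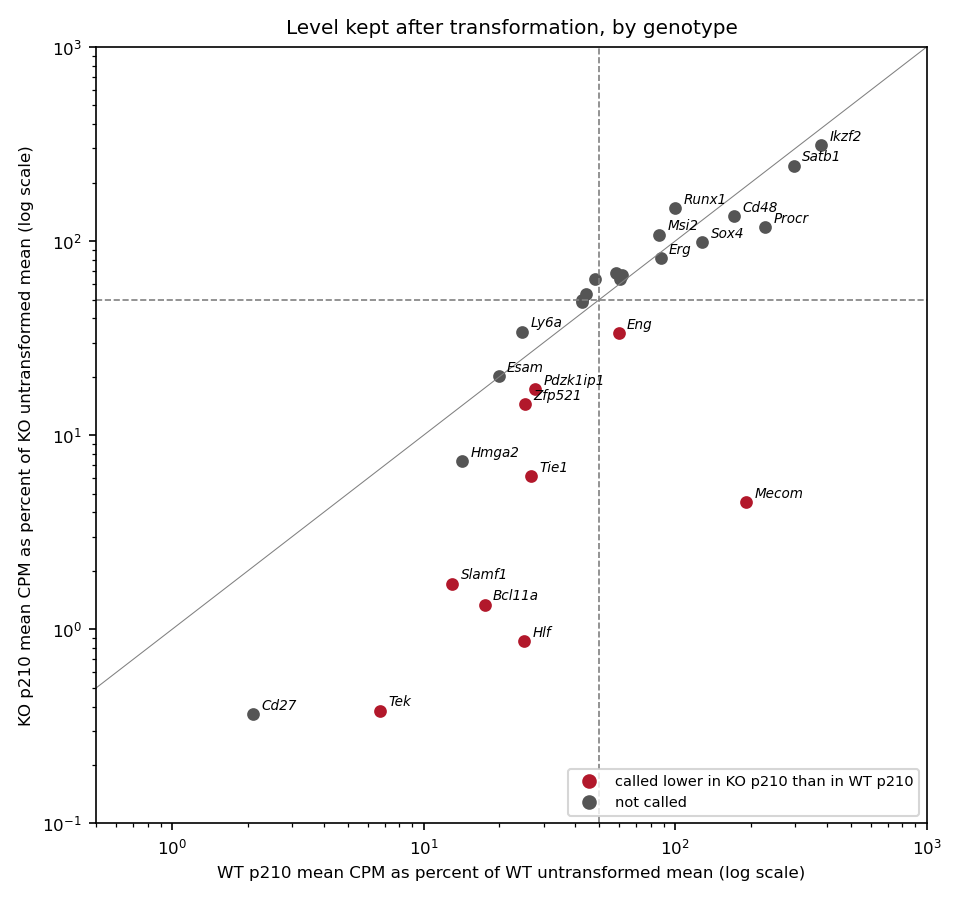
Mean level in p210 libraries as a percent of the untransformed mean, for KO lines (vertical axis, logarithmic) against WT lines (horizontal axis, logarithmic), 1 point per member (28 members, without Prdm16) and dashed lines at 50%. Mecom and Eng lie right of the vertical and below the horizontal dashed line, and Tek, Cd27, Hlf, Bcl11a and Slamf1 lie lowest, left of the vertical one. The unlabelled points near the crossing of the lines are Etv6, Mllt3, Cd34, Adgrg1, Nfix, Angpt1 and Ctnnal1.

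A second list of 38 stem and progenitor genes outside the 32 was measured in the same fit. Of 36 tested, 9 were lower in KO p210 than in WT p210 (among them Hoxa5, Hoxa7, Hoxa9, Myct1, Gucy1a1, Vldlr and Trpc6) and none was higher, against 3.56% and 0.882% of all genes, with a median of -0.96. With the library labelled KO p210 replicate 2 left out, 5 were lower (among them Hoxa5, Hoxa7, Gucy1a1 and Trpc6), with a median of -0.85. Gucy1a1, a subunit of the nitric oxide receptor, had 0 to 0.157 CPM in KO p210 and 3.05 to 7.82 CPM in WT p210 libraries (log2 fold change -7.29 ± 1.05, adjusted p = 0.00379). Trpc6, a cation channel gene, and Hoxa7, a homeobox gene, were at most 0.0873 CPM in KO p210, with 0.558 to 17.8 CPM and 0.0508 to 10.6 CPM in WT p210. In untransformed KO lines 2 of the 36 were lower (Gata2 and Gucy1a1) and 4 were higher (Lyl1, Ifitm1, Cdkn1c and Sult1a1), against 6.5% and 8.73% of all genes. With p210, 19 were lower and 3 higher in KO lines, against 18.0% and 19.2% of all genes, and 10 were lower and 4 higher in WT lines, against 17.6% and 21.9%, while none passed the interaction. The list shares its comparisons and libraries with the 32 genes.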

How the data were processed

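RNA was sequenced as 50 bp single-end reads from SENSE mRNA-Seq libraries, per the labels' protocols. Per the file headers, the authors counted reads per gene with featureCounts 1.5.1, reverse-stranded, against GENCODE M13. STAR, Trimmomatic and GRCm38 come from the submitters' processing notes, and their versions are not given in the sources used here. Per gene, the deposited files hold raw counts and the authors' TPM. TPM recomputed from the counts differed by at most 0.049. CPM here is counts divided by the TMM-adjusted library size. Symbols came from a GENCODE M21 table, which named 50376 of 50686 genes.

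Counts were fitted with edgeR 4.0.16 in R 4.3.3 (TMM scaling, filterByExpr with a minimum count of 10 and total of 15, robust quasi-likelihood F-test), all 14 libraries in 1 fit with 4 groups. P-values were adjusted by Benjamini-Hochberg over the 14512 genes tested. The 32 genes, the second stem cell list, and the marker lists were chosen with earlier results of these data known. Values per p210 library are given for members called in KO p210 against WT p210, in the interaction, or taken by the kept-and-lost rule. Ranges are given for the 4 genes of the second list with the smallest p in KO p210 against WT p210. Of these 4, 1 is not reported here. Other members for which values per library are printed were chosen after their values were seen. Alternatives used other scalings and filters, DESeq2 1.42.0, limma-voom (limma 3.58.1), blocks, run number (libraries of 1 or 2 sequencing runs) as a term, each code alone, and each library left out. Scripts were tested on simulated data.

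Deviations from group means correlated by 0.062, 0.08 and 0.021 between the 2 states of the 3 KO lines and by 0.163, 0.114 and 0.123 for the 3 WT lines. The WT lines passed the cutoff used (over 0.1) and the KO lines did not. Unmatched pairs of the same genotype across states reached 0.075 in WT and 0.069 in KO. Libraries of different genotypes also passed the cutoff, at up to 0.265 (WT untransformed 1 with KO untransformed 2) and 0.255 (WT p210 3 with KO p210 1). The cutoff thus cannot establish the pairing, which rests on code and letter as read. The line block is therefore given beside the results on transformation.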

Additional observations from a re-analysis of the deposited data

Results flagged for a closer look

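Bcl11a in KO p210 replicate 1 stood apart from its group, at 1.05 CPM against 0.0 to 0.117 CPM in the other 3 KO p210 libraries. Its gap to the nearest of them was 0.888 of the group's range, above Dixon's critical value for 4 libraries. It was the only such case among the 58 groups of 4 libraries examined, where chance gives about 1 in 20. Bcl11a without this library was called in the interaction (adjusted p = 0.0241) and remained lower in KO p210 than in WT p210.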

How the results depend on the processing

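The number of all genes called moved with the setting too. In KO p210 against WT p210, 517 were lower, 1006 with DESeq2, 290 with limma-voom and 3 in the p210 libraries alone. In untransformed lines 944 genes were lower, 1724 with DESeq2, 1203 with limma-voom and 1665 in the untransformed libraries alone. Members lower in KO p210 than in WT p210 numbered 9. The count was 3 with limma-voom, 5 with a replicate block by number, 5 in the first code alone, 1 in the second, 5 without both the library labelled KO p210 replicate 2 and WT untransformed replicate 3, 0 in the p210 libraries alone (where Tek was filtered out), and 5 to 10 with 1 library left out. None was higher, but 1 was with DESeq2 and 1 in the first code. In untransformed lines 3 were lower. That count was 6 with library size scaling, 5 with upper quartile scaling, 9 with DESeq2, 12 with limma-voom, 5 with a filter of 1 CPM in 3 libraries, 1 with a replicate block by number, 1 with run number as a term, 1 in the first code, 0 in the second, 13 in the untransformed libraries alone and 0 to 8 with 1 library left out. The 1 member higher there became 0 with limma-voom, no filter, a replicate block by number or by code and letter, run number, either code alone, and both libraries out (0 to 1 with 1 library left out).

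With p210 in KO lines, the 17 lower members became 1 in the second code (14 to 18 with 1 left out), and the 1 higher became 2 with DESeq2, 3 in the first code, 0 in the second and 2 with both libraries out (1 to 2 with 1 left out). In WT lines the 15 lower became 8 in the first code and 9 in the second (11 to 15 with 1 library left out). The 2 higher became 1 with limma-voom, no filter, each replicate block (by number, by code and letter, by line), run number, the first code, both libraries out and only the groups compared (1 to 3 with 1 left out). The interaction had 0 lower members, 4 with DESeq2 and 0 to 1 with 1 library left out. Of all 14512 genes, 5 were lower in the main fit and 276 with DESeq2. The interaction could not be fitted with only the groups compared. The 2 members kept in WT p210 and lost in KO p210 became 1 with limma-voom, the block by number, run number, the second code and both libraries out, 0 in the p210 libraries alone, 5 at a share of 0.25 and 1 at 0.75 (1 to 3 with 1 left out). Mecom reversed in WT lines, with a p210 log2 fold change of 0.94 over all lines and -5.01 (adjusted p = 0.0391) in the second code, whose 1 WT p210 library is assumed to vary like the other groups. The causes were not tested.

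With library size scaling the median gene stood at -0.0973 in KO p210 against WT p210, and at -0.00139 with TMM. Deviations of KO and WT libraries with the same number correlated within a state by -0.081 to 0.119, so the numbers were not taken to pair genotypes. At 0 to 10 counts in most KO p210 libraries, Hlf, Mecom, Slamf1 and Tek have folds that carry large counting error.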

Other observations

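Receptors of the cytokines that support stem cells in culture also differed with transformation. Kit, the SCF receptor gene, averaged 31.4 ± 11.9 CPM in KO p210 and 259 ± 15.2 CPM in untransformed KO libraries (SD, n = 4 and 3; log2 fold change -3.04, adjusted p = 3.31e-05, edgeR). In WT lines it averaged 45.5 ± 12.2 CPM in p210 and 431 ± 51.4 CPM in untransformed libraries (-3.25, adjusted p = 2.99e-05). Flt3, the receptor gene of multipotent progenitors, averaged 0.427 CPM in KO p210 and 7.46 CPM in untransformed KO, and 1.42 CPM in WT p210 and 8.14 CPM in untransformed WT, and fell in both genotypes.

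The mast cell and basophil genes Mcpt8 (a granule protease), Cpa3 (carboxypeptidase A3), Hdc (histidine decarboxylase) and Gata2 (a transcription factor of stem and mast cells) rose with p210 in both genotypes, by log2 fold changes of 3.04, 1.97, 1.63 and 1.32 in KO lines and 6.05, 2.22, 2.98 and 1.16 in WT lines. Mcpt4, Tpsb2 and Cma1, which encode other mast cell proteases, fell with p210 in WT lines, and no other gene of this list of 12 was called with p210. Cma1 was not called without the library labelled KO p210 replicate 2 (adjusted p = 0.0631). The erythroid factor gene Gata1 averaged 0.198 ± 0.182 CPM in KO p210 and 3.92 ± 3.21 CPM in WT p210 libraries (log2 fold change -4.41, adjusted p = 0.0125). With the library labelled KO p210 replicate 2 left out its adjusted p was 0.0481. Thy1 was spread over 0.273 to 1630 CPM in KO p210 libraries and 17.4 to 67.6 CPM in WT p210 libraries. Of the remaining lists, 4 tested lymphoid, 8 dendritic cell, 6 endothelial, 5 stromal and 3 lineage antigen genes had no member called in KO p210 against WT p210 with edgeR.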
